A study of Homo sapiens with 4 samples.

Results

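The mitochondrial ribosomal proteins were followed in Jurkat cells, an established line of human leukemic T cells. Cells transduced with hairpins against SLEAR were set against a Control. Members were the table rows with a gene symbol of the form MRPL or MRPS, a number and at most one letter from A to C. There were 77 such rows among 16328 in the deposited table (16151 after merging of duplicate rows), of which 49 were MRPL rows and 28 MRPS rows. They stood for 74 genes, 46 of the large and 28 of the small subunit by symbol, since MRPL4 had 2 rows and MRPL43 had 3. The groups were SLEAR shRNA, with 3 libraries numbered 1 to 3, and Control, with 1 library. Per the labels, all cells were Jurkat, hairpins against SLEAR were carried by a lentiviral vector, and reads were taken from the 3′ ends of polyadenylated RNA by MAPS, a multiplexed poly(A)-linked method. Whether 1 to 3 are different hairpins or repeats, and whether cultures were separate, is not stated in the labels. The p-values given here therefore measure just the spread among these libraries, and that spread may be technical. With a single Control library, Control values have no SD.

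Mitochondria keep a ribosome of their own, which translates the few proteins encoded by mitochondrial DNA, all of them parts of the respiratory chain and the ATP synthase. Its ribosomal RNAs come from mitochondrial DNA, while every protein is encoded in the nucleus, made in the cytosol and imported. Some of these proteins have a counterpart in the bacterial ribosome and others are found only in mitochondria. Dividing cells need them to renew their respiratory chain, and inherited defects in several of them cause combined deficiencies of oxidative phosphorylation.

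Values were RPM, that is reads scaled to a common library total, as deposited. Because MAPS reads lie next to the poly(A) tail, RPM was not divided by transcript length. Estimated depths were 4814163 to 7524247 reads in the SLEAR shRNA libraries and 8384816 in Control. SLEAR is not analysed here, and no check of its knockdown was made. SLEAR shRNA-3 stood apart from the others. Over 12350 tested rows, the Pearson correlation of log2 values across genes was 0.977 between SLEAR shRNA-1 and -2, but 0.883 and 0.887 between these and SLEAR shRNA-3. In SLEAR shRNA-3, 42.7% of all rows were at 0, against 16.3% in SLEAR shRNA-1, 14.3% in SLEAR shRNA-2 and 18.4% in Control. Of 12 T lineage markers, 10 were at 1 RPM or more in every library. The 12 summed to 3404, 3400.1 and 3680 RPM in SLEAR shRNA-1 to -3 and 3115 RPM in Control, most of it from CD3D, LCK and CD3E. The markers did not all move one way. In SLEAR shRNA-3, CD3D was at 1966 RPM and LCK at 1037 RPM, against 1580 and 753 RPM in Control. CD2 was at 44.5 RPM and TAL1 at 130 RPM there, against 67 and 166 RPM in Control. CD3G was at 0 in all SLEAR shRNA libraries and at 0.239 RPM in Control. The other marker below 1 RPM in a library was CD28, at 1.28, 2.92 and 0 RPM in SLEAR shRNA-1 to -3 and 7.87 RPM in Control. The summed markers of myeloid, erythroid, epithelial and fibroblast cells stayed at or below 3.19 RPM per list and library. The B cell list, nearly all of it CD79A, summed to 22, 19.7 and 23.1 RPM in SLEAR shRNA-1 to -3 and 12 RPM in Control.

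The mitochondrial ribosomal protein rows covered a wide range of levels. Of the 77 rows, 74 reached 1 RPM in at least 1 library and were tested, and 56 had a mean log2(RPM + 1) of 4 or more, called higher level below. MRPL51, a mitochondria-specific protein of the large subunit, was the most abundant, at 4360, 4394 and 3605 RPM in SLEAR shRNA-1 to -3 and 3973 RPM in Control. MRPL20, the counterpart of bacterial L20, followed at 3701, 3918 and 3932 RPM in the SLEAR shRNA libraries and 3488 RPM in Control. Together they made up 52.3% of the mean summed RPM of the tested rows. The next were MRPL53, at 617, 598 and 848 RPM in SLEAR shRNA-1 to -3 and 567 RPM in Control, MRPL21, at 721, 667 and 491 RPM in SLEAR shRNA and 609 RPM in Control, and MRPL34, at 560.1, 563 and 440.2 RPM in SLEAR shRNA and 529 RPM in Control. Among these 5, the Control lay inside the range of the SLEAR shRNA libraries for MRPL51, MRPL21 and MRPL34 and below it for MRPL20 and MRPL53. Within single libraries, MRPL21 lay above MRPL34 in each of the 4. MRPL51 lay above MRPL20 except in SLEAR shRNA-3, and MRPL53 lay above MRPL21 in SLEAR shRNA-3 only, so the order within these pairs was not the same in every library.

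**Figure D1:**
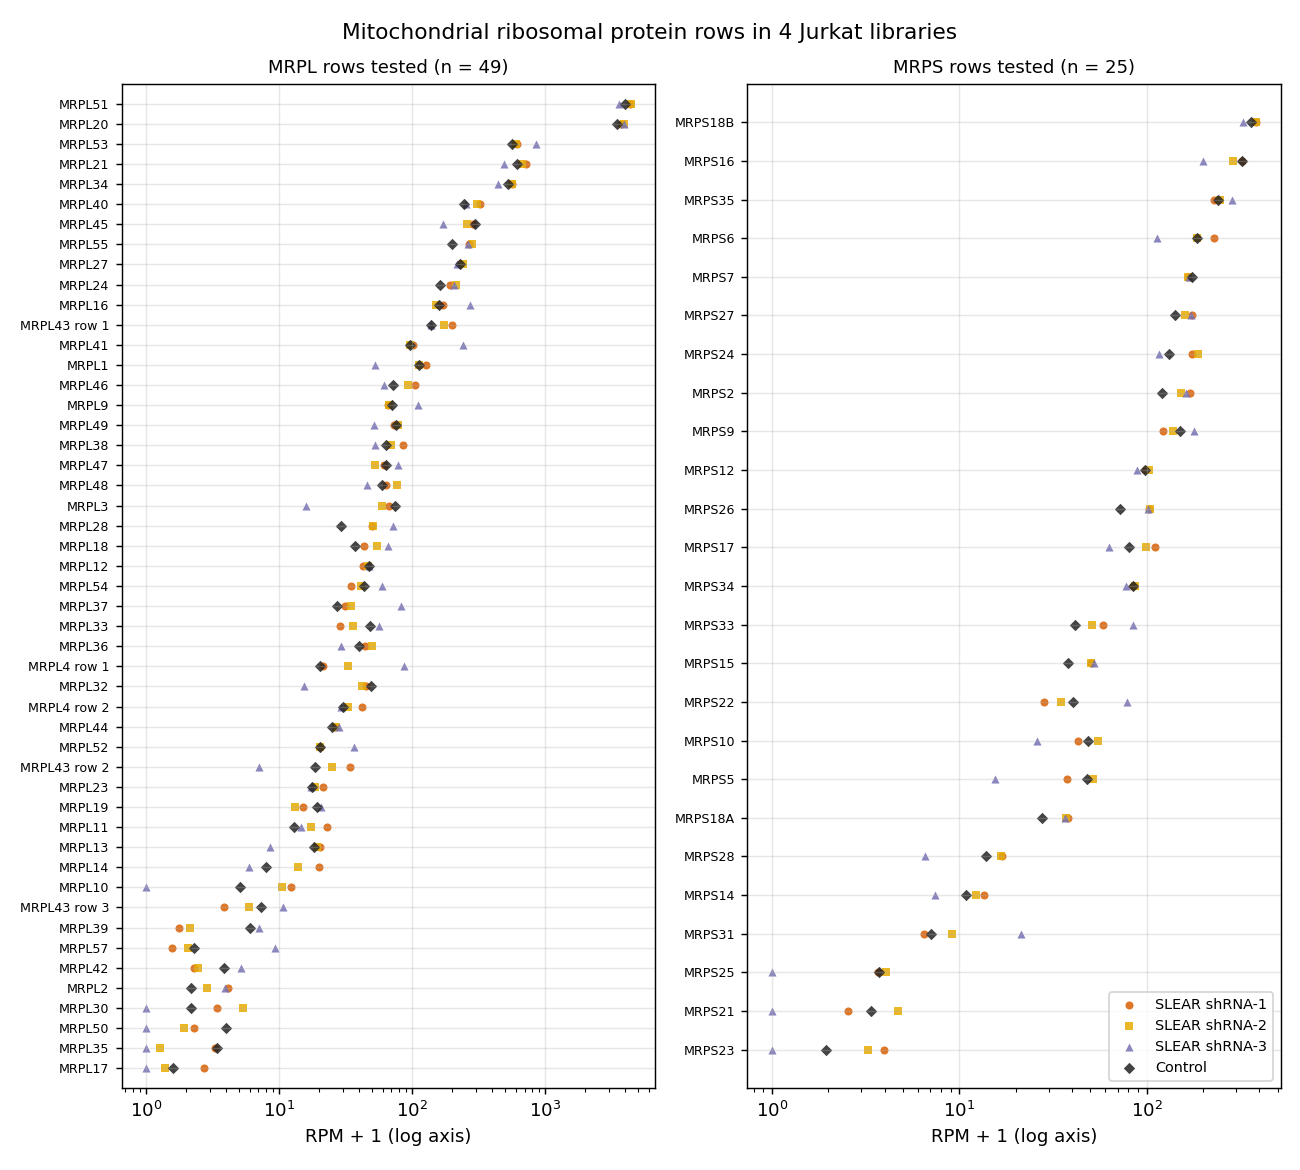
RPM + 1 on a log axis for each tested MRPL row (left, n = 49) and MRPS row (right, n = 25), with 1 symbol per library and rows ordered by their mean. SLEAR shRNA-1, SLEAR shRNA-2 and Control lie close together for most rows, SLEAR shRNA-3 lies farther off, and MRPL51 and MRPL20 lie far above the rest.

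Some members were at or near 0. MRPS36 was listed at 0 in all 4 libraries; it carries an MRPS symbol but was later assigned to the oxoglutarate dehydrogenase complex. MRPS30, which sits in the large subunit despite its symbol, was at 0, 0.797 and 0 RPM in SLEAR shRNA-1 to -3 and 0.119 RPM in Control, and MRPS11 was below 1 RPM in every library. These 3 rows were not tested. DAP3, a core small subunit protein without an MRP symbol, and LRPPRC, which stabilises mitochondrial messenger RNAs, were at or below 0.133 RPM in every library. Such values are reported as listed, since these genes are in use in most cells and a low value can be a failed estimate. At 0 in SLEAR shRNA-3 were 11 member rows (14.3%), against 2 in SLEAR shRNA-1, 1 in SLEAR shRNA-2 and 2 in Control. By counting of reads alone, a 0 allows a level of up to 0.426, 0.399 and 0.623 RPM in SLEAR shRNA-1 to -3 and 0.358 RPM in Control. MRPL10, the base of the ribosomal stalk, was the one row with a mean of at least 4 RPM and a 0, at 11.2, 9.57 and 0 RPM in SLEAR shRNA-1 to -3 and 4.05 RPM in Control.

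The promoters of these genes were searched for short motifs of factors known to act at housekeeping and mitochondrial genes. RefSeq windows of GRCh38.p14, from 250 bases before to 50 bases after the annotated start, were at hand for 66 of the 74 genes. There were 82 such windows, and a gene was counted as holding a motif if any of its windows did. Shown here, from 100 bases before to 30 bases after the start, are the 5 members that passed the test in SLEAR shRNA-1 and -2, followed by the 2 most abundant members. Capitals mark the letters CCGGAAG, bound by ETS factors such as GABPA, and AAGATGGC, bound by YY1, on either strand. The windows are on the minus strand except that of MRPS26.
MRPL28, chr16:370509-370638: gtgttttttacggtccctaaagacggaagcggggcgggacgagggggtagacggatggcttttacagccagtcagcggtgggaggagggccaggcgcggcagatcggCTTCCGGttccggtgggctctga
MRPL43, chr10:100987468-100987597: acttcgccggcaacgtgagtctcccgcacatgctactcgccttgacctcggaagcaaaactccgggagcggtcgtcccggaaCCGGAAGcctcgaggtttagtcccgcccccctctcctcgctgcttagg
MRPL55, chr1:228109270-228109399: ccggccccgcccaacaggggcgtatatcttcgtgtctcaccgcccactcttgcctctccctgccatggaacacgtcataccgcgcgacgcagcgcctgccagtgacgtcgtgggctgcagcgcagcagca
MRPS24, chr7:43869488-43869617: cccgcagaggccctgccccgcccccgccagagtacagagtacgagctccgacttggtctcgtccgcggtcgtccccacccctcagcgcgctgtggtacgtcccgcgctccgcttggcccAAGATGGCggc
MRPS26, chr20:3045952-3046081: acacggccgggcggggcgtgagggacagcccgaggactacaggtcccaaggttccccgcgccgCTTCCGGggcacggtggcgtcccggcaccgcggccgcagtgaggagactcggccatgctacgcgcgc
MRPL20, chr1:1407264-1407393: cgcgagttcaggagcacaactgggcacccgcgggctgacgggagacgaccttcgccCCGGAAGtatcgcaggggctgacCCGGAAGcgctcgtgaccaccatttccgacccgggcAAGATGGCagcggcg
MRPL51, chr12:6493233-6493362: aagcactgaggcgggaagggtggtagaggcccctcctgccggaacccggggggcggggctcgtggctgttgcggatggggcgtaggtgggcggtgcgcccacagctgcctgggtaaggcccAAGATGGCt

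The ETS letters CCGGAAG stood in a window of 28 of the 66 genes (42.4%), against 22.5% of the 8680 genes with a tested row and a window. The YY1 letters AAGATGGC stood in 20 of 66 (30.3%), against 6.69% of those genes. Both motifs were held by 8 genes (12.1%), against 1.89%, though not necessarily in the same window. The shares were alike in the subunits, at 42.5% of 40 MRPL genes and 42.3% of 26 MRPS genes for ETS and 30% and 30.8% for YY1. Among 58 cytosolic ribosomal protein genes, 37.9% held the ETS letters and 10.3% the YY1 letters. The palindromic letters CGCATGCG, the inner part of the NRF1 motif, were held by 1 of 66 genes (1.52%), MRPL17, against 4.45% of genes with a tested row. Positions were counted from each annotated start, so a site near several starts of the same gene can count more than once. Of 42 such ETS positions, 30 began within the 100 bases before the start. The YY1 positions lay differently, with 15 of 23 after the start and 17 of 23 on the gene's strand. A match is a description of the letters and not of a bound site.

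**Figure D2:**
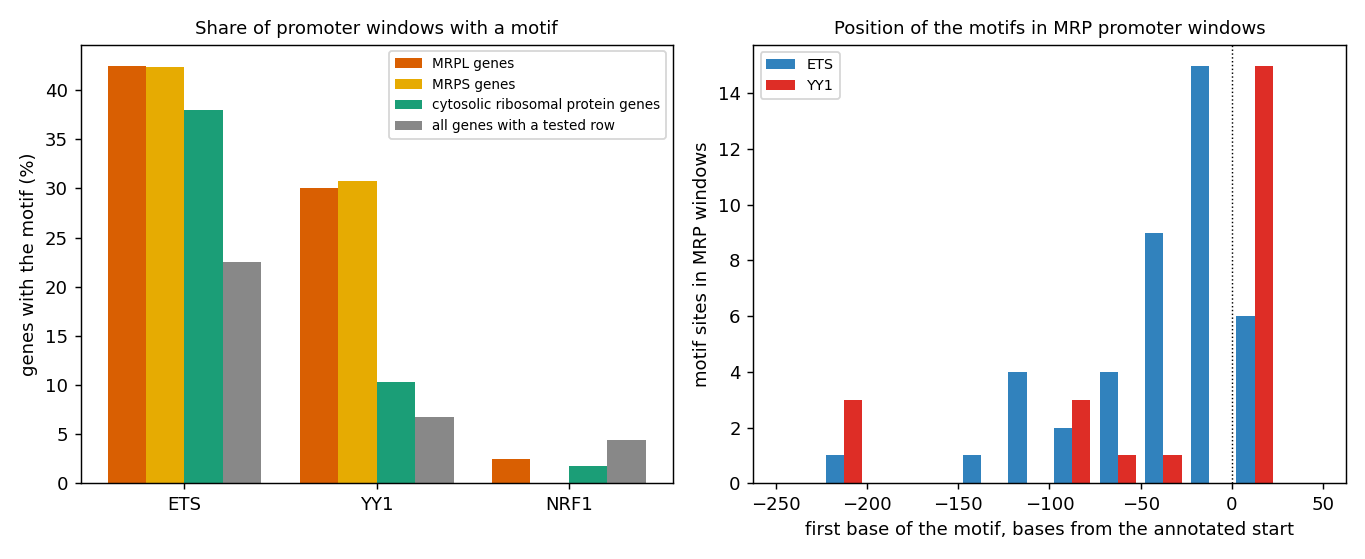
Left, the share of genes that hold each motif in any of their promoter windows, for MRPL, MRPS, cytosolic ribosomal protein and all tested genes. Right, the position of the first base of each ETS and YY1 match in the MRP windows, in bins of 25 bases. Positions are counted from each annotated start, so a site near several starts of the same gene can appear more than once. ETS matches gather just before the start and YY1 matches just after it.

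Setting SLEAR shRNA against Control asks whether the proteins of this ribosome differ when SLEAR is targeted. By limma-trend on log2(RPM + 1), with Benjamini-Hochberg adjustment over all 12350 tested rows, 0 of 74 member rows passed an adjusted p of 0.05, where 0% of all rows were called. At an unadjusted p under 0.05, 1 member was higher (MRPL28) and 0 were lower, against 2.68% of all rows in either direction, and limma-voom on the estimated reads also gave 1 and 0. The median log2 difference of the members was 0.04, against -0.11 over all tested rows. It was 0.11, 0.11 and -0.04 in SLEAR shRNA-1 to -3 taken singly, against -0.02, -0.04 and -0.23 over all tested rows. Among the 56 members of higher level, the single medians were 0.11, 0.10 and 0.04, against 0.02, -0.01 and -0.03 over the 4851 rows of that level. In the test of all libraries, no member of that level differed by 2-fold, and 31 of the 56 differed by less than 1.2-fold.

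Few members were lower than Control throughout. Of the 74 tested members, 19 (25.7%) were higher than Control in all 3 SLEAR shRNA libraries and 6 (8.11%) lower, where 17.8% of all tested rows were higher and 28.6% lower. Without SLEAR shRNA-3, 44 (59.5%) were higher in both remaining libraries and 18 (24.3%) lower, against 35.2% and 41% of all tested rows. Among the 56 members of higher level, 18 (32.1%) were higher in all 3 and 4 (7.14%) lower, against 25% and 25.6%. In SLEAR shRNA-1 and -2 alone, 36 of these 56 (64.3%) were higher in both and 12 (21.4%) lower, against 40.9% and 39.9%. All of these counts share 1 Control library. For 49 of the 74 members the Control lay within the range of the SLEAR shRNA libraries.

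Transcript GC content and length were both correlated with these differences. Over the 56 members, the Spearman correlation across genes of GC content with the log2 difference from Control was 0.36, 0.40 and 0.24 in SLEAR shRNA-1 to -3. Over the 4750 rows of that level with a GC value it was 0.31, 0.31 and 0.35. For transcript length it was -0.12, -0.17 and -0.14 over the members and -0.22, -0.30 and -0.14 over those rows. The members' median GC content was 52.6%, against 52.2% over those rows. Their median transcript length was 1155 bases, against 2378. These points share libraries and base composition, and the part of GC content or length in the members' values was not tested. Fewer cells and less RNA per cell cannot be told apart in such bulk libraries.

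**Figure D3:**
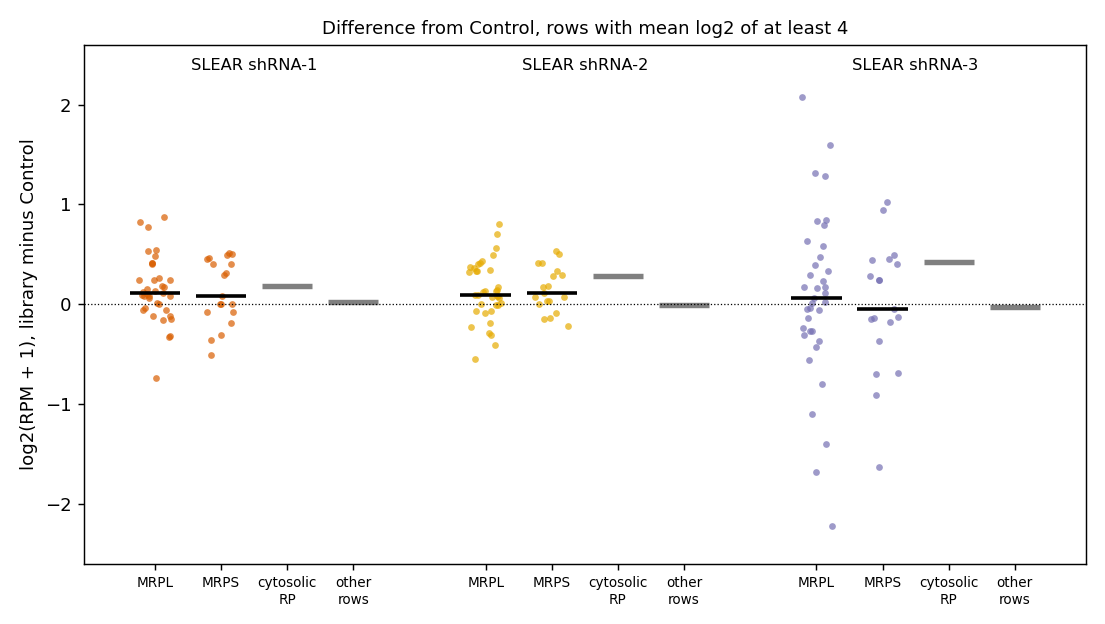
Log2(RPM + 1) of each SLEAR shRNA library minus Control for members of higher level (points, with the median as a black bar, 37 MRPL and 19 MRPS rows). Grey bars give the medians of cytosolic ribosomal protein rows and of all rows other than MRP rows; the members' medians lie between these in SLEAR shRNA-1 and -2, and the points spread most widely in SLEAR shRNA-3.

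The large and small subunits were set against each other. The summed level of MRPL rows was 12936, 13045 and 12232 RPM in SLEAR shRNA-1 to -3 and 11789 RPM in Control. That of MRPS rows was 2647, 2604 and 2363 RPM in SLEAR shRNA and 2427 RPM in Control. The ratio of the sums was 4.89, 5.01 and 5.18 in SLEAR shRNA-1 to -3 and 4.86 in Control, and it rests largely on MRPL51 and MRPL20. The median log2 difference was 0.05 over 49 MRPL rows and 0.00 over 25 MRPS rows. The MRPL median minus the MRPS median was 0.02, -0.08 and 0.16 in SLEAR shRNA-1 to -3, so over all tested rows the libraries did not share a sign. With MRPS18A and MRPS30 counted in the large subunit, where structures place them, and MRPS36 left out, it was 0.07, -0.08 and 0.19. Among rows of higher level, the same quantity was 0.02, -0.02 and 0.12 by symbol, and 0.07, 0.02 and 0.18, of one sign, with these genes moved.

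Members with and without a bacterial counterpart were described apart. In the large subunit these classes were set by number, with MRPL37 to MRPL57 counted as mitochondria-specific. This can misplace single members, such as MRPL47 and MRPL55. In the large subunit, the 27 rows counted as having a bacterial counterpart had a median log2 difference of 0.02, and the 22 counted as mitochondria-specific 0.07. In the small subunit, the 15 tested rows with a bacterial counterpart had a median of -0.07, and the 9 mitochondria-specific rows had 0.25. The small subunit medians moved with SLEAR shRNA-3: without it they were 0.08 and 0.12. In SLEAR shRNA-3 alone they were -0.37 and 0.28. The difference between these classes was not tested. Higher than Control in all 3 SLEAR shRNA libraries were 7 of 27, 6 of 22, 2 of 15 and 3 of 9 rows of these classes, in that order, against 17.8% of all tested rows. Lower in all 3 were 3, 2, 1 and 0 rows, against 28.6%.

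MRPL28, the counterpart of bacterial L28 in the large subunit, had one of the largest positive differences. It was at 49.1, 50.2 and 70.4 RPM in SLEAR shRNA-1 to -3 and 28.4 RPM in Control. All SLEAR shRNA libraries lay above Control, SLEAR shRNA-3 highest. The log2 difference was 0.95 ± 0.32 (SE), and it did not pass (limma-trend, unadjusted p = 0.0378, adjusted p = 0.993). MRPS26, a mitochondria-specific protein of the small subunit, was at 102, 104 and 100.3 RPM in SLEAR shRNA and 71.1 RPM in Control. Its 3 SLEAR shRNA values differed from each other by far less than from Control, with a log2 difference of 0.51 ± 0.19 (SE, adjusted p = 0.993). MRPL55, of the large subunit, was at 265, 282 and 262 RPM in SLEAR shRNA and 199.6 RPM in Control, a log2 difference of 0.43 ± 0.17 (SE, adjusted p = 0.993). MRPS2, the counterpart of bacterial S2, was at 169, 151 and 162 RPM in SLEAR shRNA and 119.5 RPM in Control, a log2 difference of 0.42 ± 0.19 (SE, adjusted p = 0.993). These 4 genes had the smallest unadjusted p of the members, a choice that favours groups that do not overlap. In each the SLEAR shRNA libraries were above Control, as in 25% of rows of higher level and 17.8% of all tested rows.

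The same tight pattern was seen in some other members, chosen after their values were seen. MRPS15 was at 49.5, 49.6 and 51.1 RPM in SLEAR shRNA-1 to -3 and 37.1 RPM in Control. MRPL24, the counterpart of bacterial L24, was at 191, 213 and 204 RPM in SLEAR shRNA and 161 RPM in Control. MRPS27 was at 173, 159.8 and 172 RPM in SLEAR shRNA and 141 RPM in Control. None of these passed, at adjusted p = 0.993 each by limma-trend.

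Like that of MRPL28 and unlike that of MRPS26, the other largest positive differences among members of higher level were farthest from Control in SLEAR shRNA-3. The first row of MRPL4, the counterpart of bacterial L4, was at 20.6, 32.2 and 85.3 RPM in SLEAR shRNA-1 to -3 and 19.4 RPM in Control, while the second row was at 41.3, 32.2 and 28.3 RPM in SLEAR shRNA and 29.2 RPM in Control. Of these 2 rows of 1 gene, the first was high in SLEAR shRNA-3 and the second was not. MRPL37, mitochondria-specific, was at 30.1, 33.5 and 81.8 RPM in SLEAR shRNA and 26.4 RPM in Control. MRPS33 was at 57.7, 49.8 and 83.7 RPM in SLEAR shRNA and 40.7 RPM in Control. MRPL18, the counterpart of bacterial L18, was at 42.6, 53.4 and 65.4 RPM in SLEAR shRNA and 35.9 RPM in Control. These 4 rows were above Control in all 3 libraries, and their log2 differences lay between 0.55 and 0.95 with SE of 0.33 to 0.84. Without SLEAR shRNA-3 they were 0.39 for MRPL4 row 1, 0.26 for MRPL37, 0.39 for MRPS33 and 0.40 for MRPL18. At lower level, MRPL2 was at 3.12, 1.86 and 2.91 RPM in SLEAR shRNA and 1.19 RPM in Control, with a log2 difference of 0.71 with all libraries and 0.65 without SLEAR shRNA-3. MRPL41, a mitochondria-specific protein of the large subunit, was at 99.7, 95.2 and 240 RPM in SLEAR shRNA and 95.8 RPM in Control, so it was near Control except in SLEAR shRNA-3.

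Among members of higher level, the largest negative differences were farthest from Control in SLEAR shRNA-3 as well. MRPL3, the counterpart of bacterial L3 and a disease gene, was at 65.7, 58.9 and 15 RPM in SLEAR shRNA-1 to -3 and 73.2 RPM in Control. Its log2 difference was -0.89 ± 0.92 (SE, adjusted p = 0.993 by limma-trend) with all libraries and -0.23 ± 0.19 (SE, adjusted p = 0.458) without SLEAR shRNA-3 at the higher level. MRPL32, which a protease of the inner membrane processes after import, was at 44.1, 40.9 and 14.3 RPM in SLEAR shRNA and 48.1 RPM in Control. MRPS5 was at 36.6, 51 and 14.5 RPM in SLEAR shRNA and 47.2 RPM in Control. MRPL45, which lies near the exit tunnel of the ribosome, was at 286, 260 and 171 RPM in SLEAR shRNA and 297 RPM in Control. Of these, MRPL3, MRPL32 and MRPL45 were below Control in all 3 libraries. The other members below it throughout were MRPS7, at 165, 164 and 168 RPM in SLEAR shRNA and 174 RPM in Control, and MRPL35 and MRPL50, both under 3 RPM in every library. Over all tested members, the largest negative log2 differences were those of such low rows, at -1.28 for MRPL50, -1.08 for MRPL35 and -1.02 for MRPL39, and without SLEAR shRNA-3 they were -0.93, -0.73 and -1.64. MRPL39 was at 0.766, 1.13 and 6.09 RPM in SLEAR shRNA and 5.06 RPM in Control, below Control in SLEAR shRNA-1 and -2 and above it in SLEAR shRNA-3. MRPL2, MRPL35, MRPL39, MRPL50 and MRPS7, and below CHCHD1, AURKAIP1, TFB2M, TEFM and the members of the transcription class, were named after their values were seen. The differences of MRPL1, at 125, 112 and 51.3 RPM in SLEAR shRNA and 111 RPM in Control, and of MRPS10, at 41.9, 53.8 and 24.9 RPM in SLEAR shRNA and 47.7 RPM in Control, turned on SLEAR shRNA-3 alone.

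SLEAR shRNA-3 lay at least 2-fold from the mean of SLEAR shRNA-1 and -2 on the log2(RPM + 1) scale in 9 of the 56 members of higher level (16.1%), where 16.1% of all rows of that level did. Over all tested rows it did so in 24 of 74 members (32.4%), against 38.9%. SLEAR shRNA-1 and -2 differed from each other by 2-fold in 0 of the 56 members, and the median of their absolute log2 difference was 0.15. The same median for SLEAR shRNA-3 against the mean of the other SLEAR shRNA libraries was 0.50, close to 0.45 over all rows of that level.

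**Figure D4:**
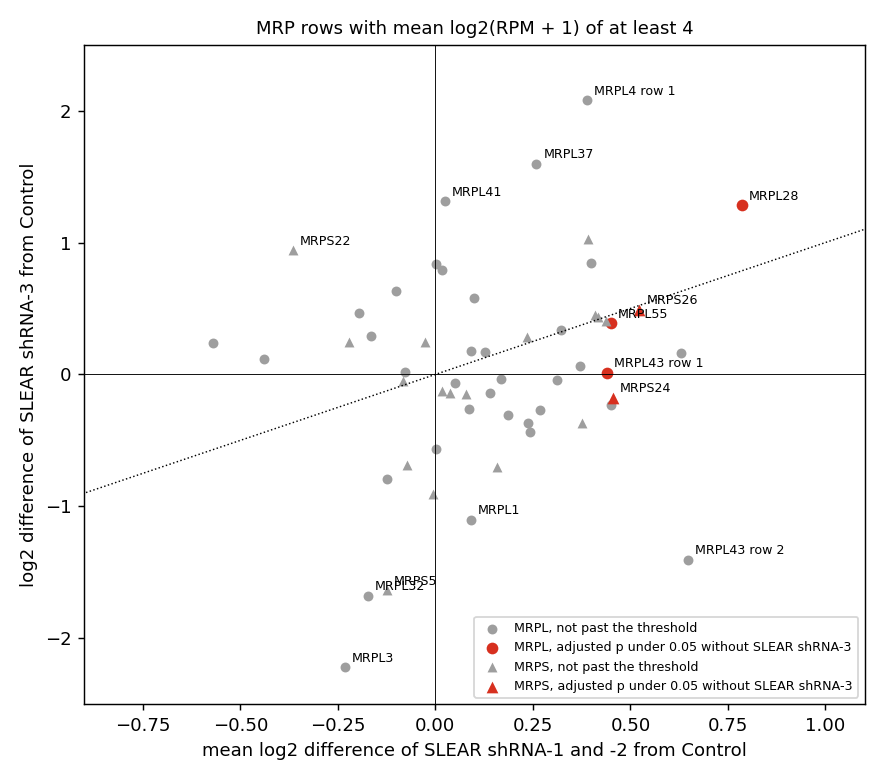
Log2 difference from Control in SLEAR shRNA-3 (vertical axis) against the mean of SLEAR shRNA-1 and -2 (horizontal axis) for the 56 members of higher level; the dotted line marks equal values. MRPL28, MRPS26 and MRPL55 lie above 0 on both axes, MRPL43 row 1 and MRPS24 are above 0 on the horizontal axis only or nearly so, and labelled grey points lie far from the dotted line. Values in both directions share 1 Control.

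Without SLEAR shRNA-3, and among the 4851 rows of higher level, 5 of 56 members passed as higher and 0 as lower, where 7.11% of rows were called higher, 7.26% lower and 14.4% in either direction. The median log2 difference of the 56 members in that fit was 0.11, against 0.003 over the 4851 rows. The count called higher was near the share of all rows. MRPL28 rose 1.72-fold, to 49.1 and 50.2 RPM in these libraries, against 28.4 RPM in Control (limma-trend adjusted p = 0.00593). MRPS26 rose 1.44-fold (adjusted p = 0.0317) and MRPL55 1.37-fold (adjusted p = 0.0247), both with SLEAR shRNA-3 on the same side. MRPS24, the counterpart of bacterial S3, rose 1.37-fold, to 174 and 186 RPM, against 131 RPM in Control (adjusted p = 0.0374). In SLEAR shRNA-3, MRPS24 was at 116 RPM, below Control, and the readthrough transcript URGCP-MRPS24 has the same row. MRPL43 row 1 rose 1.36-fold, to 199.6 and 173 RPM, against 137 RPM in Control (adjusted p = 0.0437), and was at 138 RPM in SLEAR shRNA-3. In that fit the spread rests on 2 libraries, with 1 residual degree of freedom a row, and limma took 1 trend of the variance for all rows. By limma-voom on the estimated reads, an alternative chosen after the data were seen, 5 members were called higher and 0 lower, with 6.68% of rows higher, 8.23% lower and 14.9% in either direction.

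Beside MRPL43 row 1, the gene had 2 other rows. Row 2 was at 33.4, 23.9 and 6.06 RPM in SLEAR shRNA-1 to -3 and 17.7 RPM in Control, and row 3 at 2.84, 4.92 and 9.76 RPM in SLEAR shRNA and 6.32 RPM in Control. The rows did not move together: in SLEAR shRNA-1 and -2, rows 1 and 2 were above Control and row 3 below it.

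The ribosomal stalk recruits translation factors. MRPL12, its flexible part, was at 41.6, 45.7 and 46.7 RPM in SLEAR shRNA-1 to -3 and 46 RPM in Control, a log2 difference of -0.04 ± 0.25 (SE), whereas MRPL10, given above, was spread too widely to be read. Of the 3 human versions of bacterial S18, MRPS18B was at 384, 380.2 and 326 RPM in SLEAR shRNA and 361 RPM in Control, and MRPS18A at 37, 36 and 35.7 RPM in SLEAR shRNA and 26.7 RPM in Control. MRPS18C is not analysed here. MRPS18B overlapped Control, and MRPS18A lay above it in all 3 libraries, with a log2 difference of 0.43 ± 0.27 (SE, adjusted p = 0.993 by limma-trend).

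Some other members from a fixed list were as follows. MRPS12, which takes part in decoding, was at 97, 101 and 87.5 RPM in SLEAR shRNA-1 to -3 and 96.6 RPM in Control. MRPS34 was at 83.4, 85.3 and 76.2 RPM in SLEAR shRNA and 83.4 RPM in Control. MRPL44 was at 25.5, 25.7 and 27.2 RPM in SLEAR shRNA and 24 RPM in Control. These 3 genes kept all 4 libraries within a narrow range. MRPS16, the counterpart of bacterial S16, was at 321, 288 and 198 RPM in SLEAR shRNA and 319.9 RPM in Control. MRPS22 was at 27.5, 34 and 77.3 RPM in SLEAR shRNA and 39.7 RPM in Control, below Control in SLEAR shRNA-1 and -2 and above it in SLEAR shRNA-3. MRPL57, near the floor, was at 0.568, 1.06 and 8.31 RPM in SLEAR shRNA and 1.31 RPM in Control.

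Genes that build or serve this ribosome were examined as a list of 56 rows, of which 52 were tested. None passed in the test of all libraries, where 0% of all rows did, 0 had an unadjusted p under 0.05 by limma-trend, and limma-voom called 0. Their median log2 difference was -0.08, against -0.11 over all tested rows, with 12 (23.1%) higher and 11 (21.2%) lower than Control in all 3 SLEAR shRNA libraries, where 17.8% of all tested rows were higher and 28.6% lower. Translation factors of higher level (6 rows) had a median of -0.28, and 0 of them were higher than Control in all 3 libraries, 1 lower and 5 mixed, where 25% of rows of that level were higher and 25.6% lower. Over the 13 tested translation factors, 2 were higher in all 3 and 2 lower. MTIF2, the initiation factor, was at 39.2, 40.5 and 45.9 RPM in SLEAR shRNA-1 to -3 and 53.5 RPM in Control, below Control in each. C12orf65, which rescues stalled ribosomes, was at 40, 36 and 58.2 RPM in SLEAR shRNA and 56.6 RPM in Control, above Control in SLEAR shRNA-3 only. TUFM, the elongation factor, was low at 2.84, 2.79 and 4.15 RPM in SLEAR shRNA and 1.67 RPM in Control.

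Among genes of mitochondrial transcription, messenger RNA handling, protein quality and membrane insertion, the 6 rows of higher level were all above Control in the 3 SLEAR shRNA libraries, where 25% of rows of that level were, with a median log2 difference of 0.32. OXA1L, which inserts the new proteins into the inner membrane, was at 247, 276 and 222 RPM in SLEAR shRNA and 203 RPM in Control, a log2 difference of 0.29 ± 0.21 (SE, adjusted p = 0.993 by limma-trend). The other rows were SLIRP, POLRMT, LONP1, CLPP and TACO1. The remaining 4 tested rows of that class were low. Of these, TFB2M and TEFM were lower than Control in all 3 libraries, at 0.709, 0.930 and 0 RPM in SLEAR shRNA and 1.19 RPM in Control for TFB2M, and at 2.27, 1.59 and 0 RPM in SLEAR shRNA and 3.22 RPM in Control for TEFM. Another was TFAM, the packaging protein of mitochondrial DNA, at 2.55, 3.72 and 6.65 RPM in SLEAR shRNA and 4.89 RPM in Control.

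Mitoribosome proteins without an MRPL or MRPS symbol gave 6 rows. ICT1, a hydrolase built into the large subunit, was at 46.3, 40.4 and 30.3 RPM in SLEAR shRNA-1 to -3 and 40.8 RPM in Control, and GADD45GIP1 was at 98.3, 107.5 and 160 RPM in SLEAR shRNA and 104 RPM in Control. AURKAIP1 was at 94.9, 118 and 213 RPM in SLEAR shRNA and 113 RPM in Control. These 3 overlapped Control. CHCHD1 was below Control in all 3 libraries, at 22.3, 19.1 and 21.6 RPM in SLEAR shRNA and 26.4 RPM in Control, a log2 difference of -0.32 ± 0.34 (SE, adjusted p = 0.993 by limma-trend). PTCD3 was near the floor except for 8.10 RPM in SLEAR shRNA-3. In assembly, METTL15, a methyltransferase of the small subunit RNA, had the largest difference at higher level, at 36.2, 47.2 and 34.9 RPM in SLEAR shRNA and 24.1 RPM in Control. It did not pass with all libraries (log2 difference 0.68 ± 0.32, SE, adjusted p = 0.993 by limma-trend). It was the 1 row of 29 in the list to pass as higher without SLEAR shRNA-3 (limma-trend adjusted p = 0.0141). In that fit, 7.11% of all rows of higher level were called higher and 14.4% in either direction. By limma-voom in that setting METTL15 passed as higher (adjusted p = 0.0173) and C12orf65 as lower (adjusted p = 0.0475). MPV17L2 was at 21, 22.9 and 43.6 RPM in SLEAR shRNA and 17.3 RPM in Control, YBEY, in the higher of its 2 rows, at 36.3, 34.7 and 50.9 RPM in SLEAR shRNA and 28.9 RPM in Control, and NGRN, which binds the large subunit RNA, at 116, 108.7 and 39.5 RPM in SLEAR shRNA and 124 RPM in Control.

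Set beside the cytosolic ribosome, the members' differences were smaller in median. The 76 tested rows of cytosolic ribosomal proteins had a median log2 difference of 0.32, and 43 of them (56.6%) were higher than Control in all 3 SLEAR shRNA libraries and 7 (9.21%) lower, where 17.8% of all tested rows were higher and 28.6% lower. The median of the 74 members was 0.04. The medians of single libraries were 0.18, 0.29 and 0.35 for the cytosolic rows in SLEAR shRNA-1 to -3 and 0.11, 0.11 and -0.04 for the members. The difference between these lists was not tested, and both are set against the same Control.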

How the data were processed

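Polyadenylated RNA of Jurkat cells was read from its 3′ ends in 3 SLEAR shRNA libraries and 1 Control library. The authors deposited 1 table of RPM values; that the unit is RPM was read from the values, whose low ones are whole multiples of 1 step. Bowtie2, SAMtools, FastQC and the build hg19 are listed, without versions, in the submitters' processing notes; the step that assigned reads to rows is not stated there. Depth was taken from that step, and between 95.6% and 97.1% of values above 0 were whole reads within 0.05; the rest were not, so the values were not treated as counts. Intervals and floors, set at 3 reads, cover counting error only. Identical rows averaging 1 RPM or more were kept once, a loss of 177 rows.

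SLEAR shRNA was compared with Control by limma-trend (limma 3.58.1, R 4.3.3) on log2(RPM + 1). A row was tested if any library reached 1 RPM. P-values were adjusted by Benjamini-Hochberg over all tested rows, with a threshold of 0.05. Only the SLEAR shRNA libraries have replicates, which leaves 2 residual degrees of freedom, and the single Control is taken to have their spread. Fold changes on this scale understate the change of low rows. The method was tested on simulated data in which all libraries had the same spread. That test does not cover a library set apart as SLEAR shRNA-3 was.

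Members, lists and named genes were chosen with earlier results of these data known. Named members were the 6 largest and 6 smallest differences at a mean log2 value of at least 4, the 5 highest levels, rows at 0 with a mean of at least 4 RPM, the 4 smallest p, the members past the threshold with all libraries, the 8 largest changes past it without SLEAR shRNA-3, genes with several rows and a fixed list; partner genes were the 3 largest and 3 smallest differences and a fixed list. GC content and transcript length came from GENCODE 29 transcripts through RefSeq names. Promoter sequence came from RefSeq (GRCh38.p14), whose build is not that of the deposited table, which gives no coordinates. Of RefSeq's MRP symbols, MRPL15, MRPL22, MRPL58 and MRPS18C had no row of that name; MRPL58 is analysed under its older symbol ICT1, and the others are not analysed here. Alternatives were other scalings, pseudocounts of 0.1 and 5, other filters, limma-voom, array weights and leaving out each SLEAR shRNA library.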

Additional observations from a re-analysis of the deposited data

How the results depend on the processing

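No paired analysis was possible because the Control is 1 library with no number to share. With all libraries, no MRP row was called by limma-trend under other scalings, pseudocounts of 0.1 and 5, either filter, limma-voom or array weights, and none without 1 SLEAR shRNA library. In these fits the median log2 difference of the members ran from 0.009 without SLEAR shRNA-1 to 0.12 without SLEAR shRNA-3. The median over all tested rows was -0.13 and -0.03 there. Over all rows, 377 were called with no filter (1 higher, 376 lower). Without SLEAR shRNA-3 and at a mean log2 value of at least 4, 697 rows, 5 MRP rows and 1 partner row were called, and 723, 5 and 2 by limma-voom, an alternative chosen with the data known. When 1 SLEAR shRNA library was left out, 21 to 44 MRP rows (28.4% to 59.5%) were higher than Control in every remaining library. Of all tested rows, 22.45% to 35.2% were. Lower ones numbered 8 to 18 (10.8% to 24.3%), against 34.9% to 41% of all tested rows. Of 446 values of 35 named members, 395 kept direction and call, 10 became called and 41 changed sign, the cause of which was not tested.

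The log2 difference of MRPL10 was 0.029 with TMM scaling, 0.017 with median-of-ratios scaling, 0.22 with a pseudocount of 5 and 1.03 with array weights, and that of MRPL43 row 2 was 0.023 with a pseudocount of 5, 0.071 with limma-voom and 0.52 with array weights. With array weights it was 0.031 for MRPL1, 0.076 for MRPL34, -0.23 for MRPL57, 0.014 for MRPS10, 0.041 for MRPS12, -0.28 for MRPS22 and 0.017 for MRPS34. Without SLEAR shRNA-3 and at the higher level, by limma-trend and limma-voom, it was 0.090 and 0.090 for MRPL1, 0.086 and 0.086 for MRPL34, 0.65 and 0.67 for MRPL43 row 2, 0.038 and 0.039 for MRPS12, -0.37 and -0.37 for MRPS22, 0.017 and 0.018 for MRPS34.

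When each SLEAR shRNA library was left out in turn, log2 differences ran for MRPL1 from -0.55 to 0.090, for MRPL10 from -0.64 to 1.17, for MRPL12 from -0.077 to 0.0058, for MRPL21 from -0.090 to 0.19, for MRPL34 from -0.091 to 0.086, for MRPL43 row 2 from -0.49 to 0.65, for MRPL43 row 3 from -0.62 to 0.12, for MRPL51 from -0.0030 to 0.14, for MRPL57 from -0.36 to 0.92, for MRPS12 from -0.068 to 0.038, for MRPS18B from -0.038 to 0.080, for MRPS22 from -0.37 to 0.36 and for MRPS34 from -0.063 to 0.017.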
